A study of Mus musculus with 32 samples.

Results

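Dark zone B cells of the germinal centre were compared with naive B cells in the spleens of WT mice. Every library labelled dark zone WT was set against every library labelled naive B cells WT, with 4 libraries in each group, so the comparison used 8 of the 32 libraries of the series. Both groups came from C57BL/6 mice aged 12 weeks with the genotype AID-cre WT, that is, mice that carried the AID-cre allele without the activated PIK3CD (aPIK3CD) allele that the other mice of the study carried. All of them, the donors of the naive cells included, had received NP-CGG in alum intraperitoneally 14 days before sorting. Libraries were made from 500 sorted cells each, by the SMART-Seq v4 method for low RNA input, and the labels give no sorting gate and no number of mice behind a library. The p-values below therefore measure the spread between these libraries, which may in part be technical.

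Naive follicular B cells are resting, recirculating cells that carry IgM and IgD. After antigen and T cell help, B cells that enter a germinal centre alternate between a light zone, where they collect antigen and compete for T cell help, and a dark zone, where they divide rapidly and where mutations are introduced into the immunoglobulin variable regions. BCL6 is the transcription factor that germinal centre B cells require, the chemokine receptor CXCR4 positions cells in the dark zone, and FOXO1 is needed for the dark zone state. The AID-cre allele is known to express Cre recombinase in germinal centre B cells.

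The deposited values were raw counts per gene. Naive libraries held 1965329 to 2820830 counts and 3 of the dark zone libraries 1295646 to 1464876, but dark zone replicate 3 held only 25797. A single count in replicate 3 equals 39.2 CPM (counts scaled to a common library total), so a 0 there does not show that a gene was silent. That library also drew 6.12% of its counts from mitochondrially encoded genes and 16.8% from its 50 highest genes, against 0.818 to 0.905% and 5.01 to 5.35% in the other 3 dark zone libraries. The counts of the deep libraries appeared bounded, at about 2 per exonic base of a gene. Genes below 0.1 counts per exonic base had a summed CPM in replicate 3 of 0.844 times that of the other dark zone libraries, and the 11 genes above 1 count per exonic base one of 6.57 times. Mitochondrially encoded genes, some of them near the bound, summed to 60472 CPM in replicate 3 and to 8072 to 8942 CPM in the other dark zone libraries. How much of the highest ratio they make up was not tested. Folds of very abundant genes in replicate 3 are therefore not comparable with the rest. The main counts and many list results below are given with and without that library. Folds of most single genes are given with it only, also where it stood apart from the other dark zone libraries. Dark zone values are given throughout in the order replicate 1, 2, 3 and 4.

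**Figure D1:**
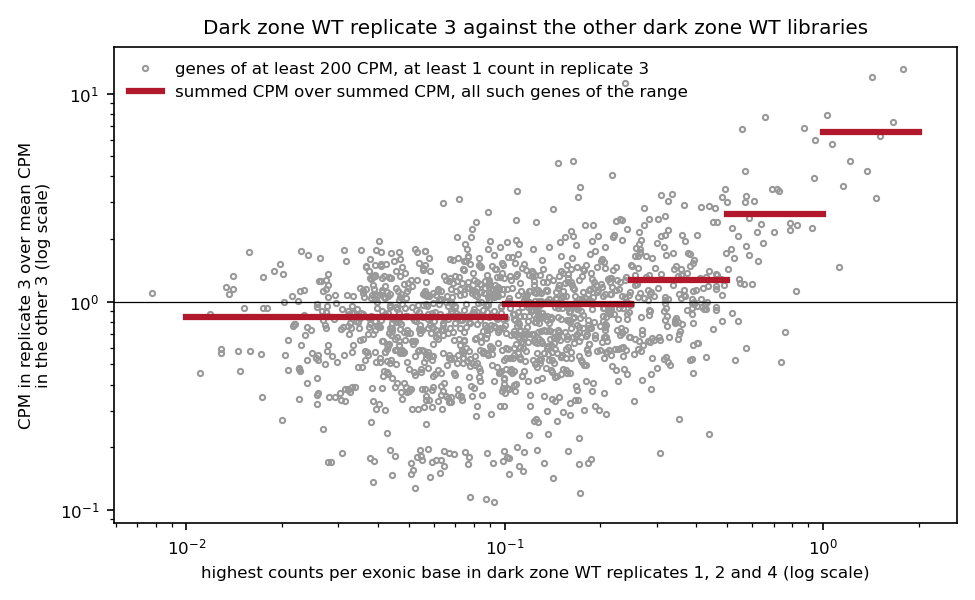
Each circle is a gene of at least 200 CPM in dark zone replicates 1, 2 and 4; the vertical axis (log scale) is its CPM in replicate 3 over the mean of those 3 libraries, the horizontal axis (log scale) its highest counts per exonic base there. Red lines give the ratio of summed CPM in each range, which lies at 0.844 in the lowest range and at 6.57 in the highest.

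Of 10823 genes tested with edgeR's quasi-likelihood F test, 4431 (40.9%) differed between dark zone and naive cells at a Benjamini-Hochberg adjusted p below 0.05. In dark zone cells 2123 genes (19.6%) were higher and 2308 (21.3%) lower, and 1402 and 1697 of them differed by more than 2-fold. Without replicate 3 the counts were 2117 and 2358 (41.3% of genes in all), and 4286 of the 4431 calls were kept in the same direction. Values of the 2 groups did not overlap in any library for 34.9% of the tested genes. The median log2 fold change over all of them was -0.06. Scaling by DESeq2's size factors in place of TMM moved all log2 fold changes by a median of -0.16 and the counts to 1777 higher and 2852 lower, so a gene or list within that distance of 0 has no fixed direction, while none of the 4431 calls changed sign. With so large a share of genes called, a list stands out only where its counts depart widely from 19.6% higher and 21.3% lower. Log2 fold changes are given as estimate ± SE with n = 4 libraries a group, and positive values mean higher in the dark zone.

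**Figure D2:**
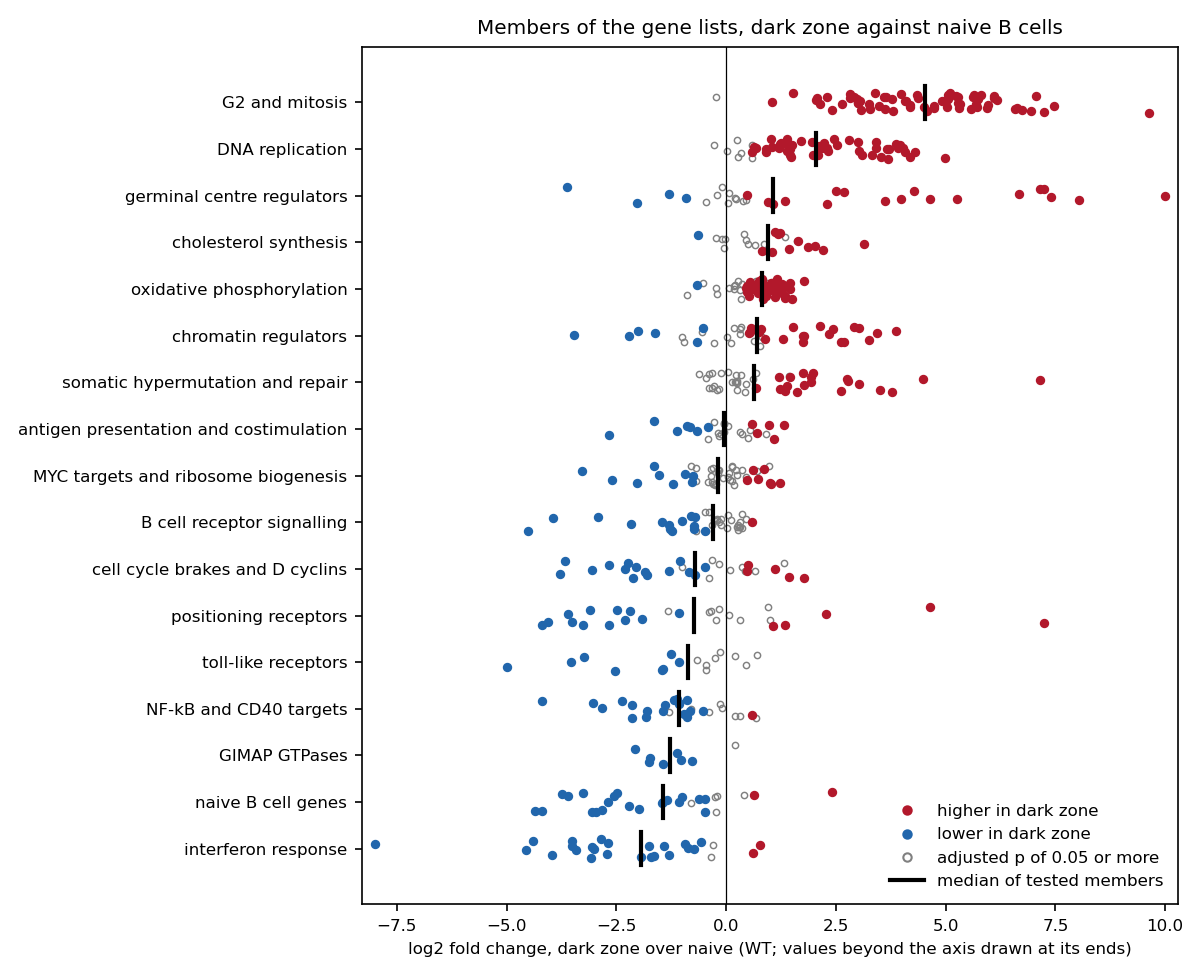
Log2 fold changes of dark zone over naive WT cells for the tested members of 17 gene lists, 1 point a gene, with filled red and blue points past the adjusted p of 0.05 and a black bar at each list's median. Medians run from 4.54 for genes of G2 and mitosis to -1.93 for interferon response genes; fitted values of genes with no counts in a group are drawn but are not bounds.

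The labels were first checked against markers. Of 13 tested dark zone markers, 12 were higher in dark zone than in naive cells, against 19.6% of all tested genes, and 0 lower, with a median log2 fold change of 3.60. The exception was Cxcr4 itself, which had 46.5, 72.4, 157 and 59.5 CPM in dark zone cells, against 72.4, 101, 37.9 and 69.6 CPM in naive cells (log2 fold change -0.15 ± 0.33, adjusted p 0.74). Its values in the groups overlapped. Mme, the remaining marker on the list, was too low to be tested. Over the alternatives run, 9 to 12 of the dark zone markers were higher and 0 lower. The list summed to 2049 to 2831 CPM in light zone WT libraries, against 654.3 to 825.3 CPM in naive WT libraries. A contrast with naive cells alone therefore does not separate the dark zone from the light zone. Among 13 tested light zone markers 0 were higher and 8 lower in dark zone than in naive cells, with a median of -0.88. The pan-B-cell gene Ms4a1 (CD20) was present in all 8 libraries and did not pass the test. It averaged 1749 ± 379.6 CPM in dark zone and 1281 ± 158 CPM in naive cells (SD, n = 4 each), and without replicate 3 it was called higher (log2 fold change 0.26, adjusted p 0.047).

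Genes known as germinal centre regulators were mostly higher in the dark zone. Of the 31 tested, 18 were higher and 4 lower, with a median of 1.08, and the counts were the same without replicate 3. Gcsam, a germinal centre adaptor that signals to the cytoskeleton and restrains cell motility, had 716, 744, 510.1 and 632 CPM in dark zone cells, against 0, 0, 0 and 0 CPM in naive cells. Not a single naive count was recorded in 4 libraries, so dark zone cells were at least 2269-fold higher against a floor of 3 counts over the naive group. Nuggc, a nuclear GTPase of germinal centre B cells, had 539.6, 538, 549 and 445 CPM in dark zone cells, against 0, 0, 6.13 and 5.58 CPM in naive cells (log2 fold change 7.40 ± 0.46, adjusted p 9.1e-09). The lowest dark zone library exceeded the highest naive library by a wide margin for both genes.

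Bcl6 had 125, 157, 196 and 114 CPM in dark zone cells, against 19.1, 30.0, 25.3 and 21.5 CPM in naive cells (log2 fold change 2.49 ± 0.26, adjusted p 1.5e-06). Mef2b, a transcription factor that activates Bcl6, had 537, 523, 432 and 538 CPM in dark zone cells, against 21.7, 7.49, 14.6 and 12.5 CPM in naive cells (log2 fold change 5.25 ± 0.25, adjusted p 3.8e-10). Bach2, a repressor that holds B cells back from plasma cell fate, had 638, 631, 981 and 541 CPM in dark zone cells, against 274, 232, 226 and 281 CPM in naive cells (log2 fold change 1.34 ± 0.17, adjusted p 1.3e-05). All 3 were separated in every library, but their sizes differed: Mef2b was far lower in naive cells than Bach2, which naive cells already carry. Mybl1, the A-MYB transcription factor, had 341, 405, 432 and 328 CPM in dark zone cells, against 1.03, 3.06, 0.383 and 0.429 CPM in naive cells (log2 fold change 8.04 ± 0.34, adjusted p 1.7e-10). Bcl7a, a subunit of SWI/SNF chromatin remodelling complexes, rose by 2.31 ± 0.25, and Pou2af1, the octamer coactivator OCA-B, by 0.96 ± 0.18. Foxo1 rose the least of those named, with 406, 456, 510.1 and 336 CPM in dark zone cells, against 293, 308, 280.4 and 286 CPM in naive cells (log2 fold change 0.48 ± 0.15, adjusted p 0.019). Its groups did not overlap, but the call was lost with DESeq2's size factors (0.33, adjusted p 0.092) and on leaving out either dark zone replicate 1 or 2 or naive replicate 3 or 4.

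**Figure D3:**
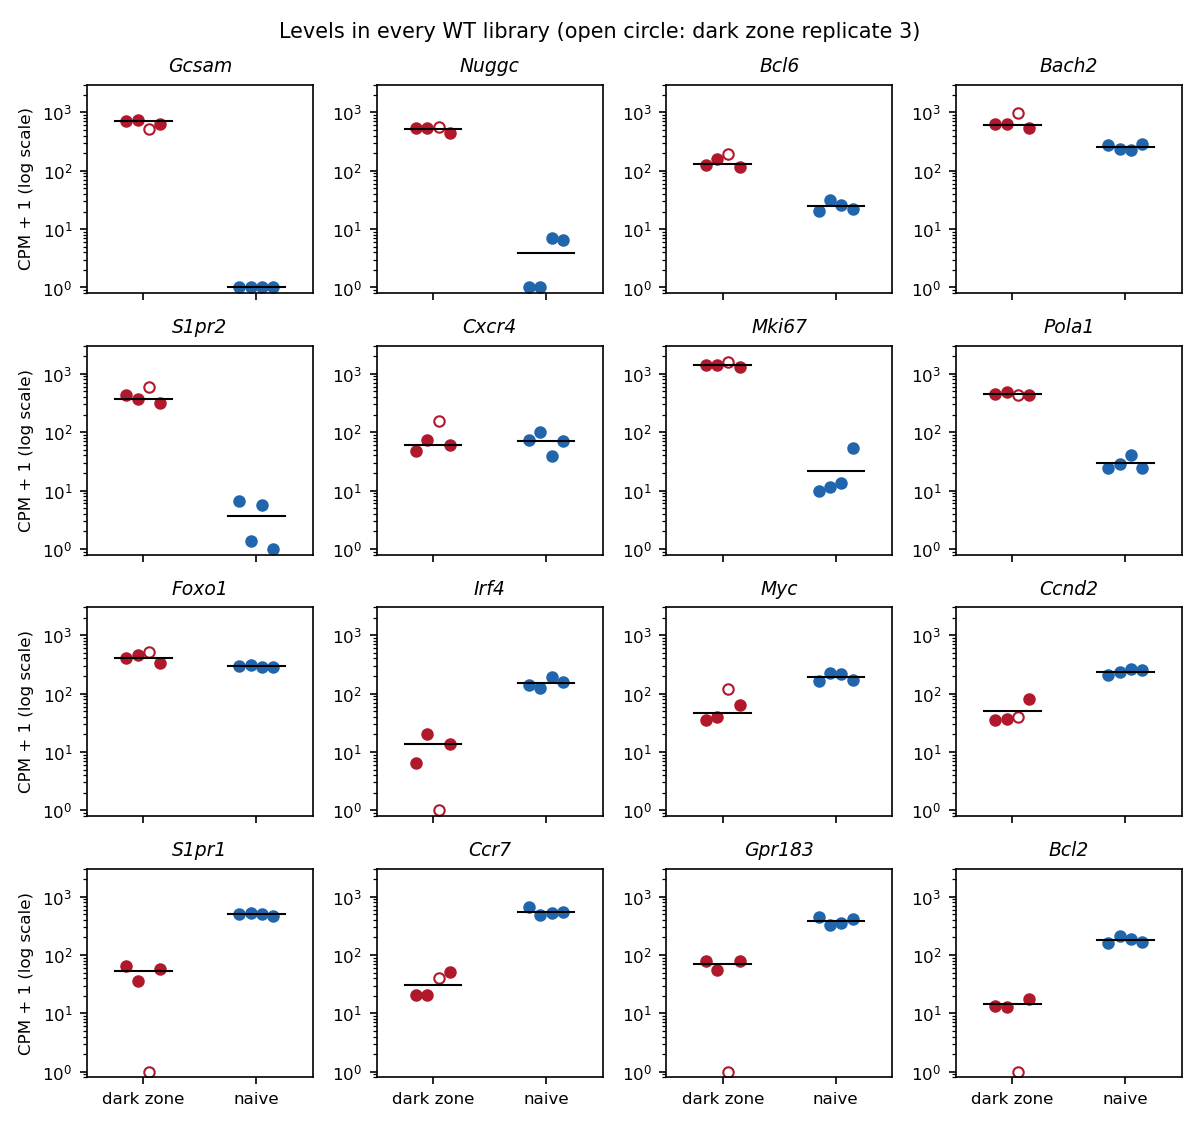
CPM + 1 (log scale) of 16 genes in each of the 4 dark zone (red, left) and 4 naive (blue, right) WT libraries; the open circle is dark zone replicate 3 and bars are means, which leave that library out. Gcsam sits at 510.1 to 744 CPM in dark zone libraries and at 0 in the naive ones, and Cxcr4 overlaps between the groups.

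Several B cell transcription factors moved the other way or did not pass the test. Irf4, the factor that at high level drives plasma cell differentiation, had 5.42, 19.3, 0 and 12.8 CPM in dark zone cells, against 138, 123, 194 and 156 CPM in naive cells (log2 fold change -3.63 ± 0.34, adjusted p 5.9e-07). Myc, which T cell help induces in the light zone, had 34.1, 38.6, 118 and 63.1 CPM in dark zone cells, against 160.4, 224, 212 and 168 CPM in naive cells (log2 fold change -2.03 ± 0.26, adjusted p 1.3e-05). Neither overlapped between the groups. Lmo2, a LIM-domain cofactor, fell at -1.29 ± 0.17. The lineage factor Pax5 averaged 544 ± 140.0 CPM in dark zone and 365 ± 66.3 CPM in naive cells (log2 fold change 0.46 ± 0.18, adjusted p 0.053), Irf8 averaged 591 ± 34.2 CPM in dark zone and 522 ± 43.1 CPM in naive cells (log2 fold change 0.20 ± 0.14, adjusted p 0.28), and Spib averaged 335 ± 19.5 CPM in dark zone and 380.3 ± 88.5 CPM in naive cells (log2 fold change -0.20 ± 0.17, adjusted p 0.38); these 3 did not pass.

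In somatic hypermutation, base excision repair, mismatch repair and error-prone polymerases process lesions in the immunoglobulin variable regions. Of 44 tested genes of this machinery and of related repair, 20 were higher and 0 lower (19 and 0 without replicate 3), with a median of 0.64. Ung, the uracil glycosylase that removes deaminated cytosine, had 32.5, 14.5, 0 and 27.6 CPM in dark zone cells, against 0, 1.36, 4.21 and 7.73 CPM in naive cells (log2 fold change 2.79 ± 0.80, adjusted p 0.011). Neil1, a glycosylase for oxidised bases that is prominent in germinal centre B cells, had 568, 512, 824 and 475 CPM in dark zone cells, against 27.9, 61.6, 31.8 and 36.5 CPM in naive cells (log2 fold change 3.77 ± 0.24, adjusted p 1.1e-08). Both groups of Neil1 values lay far apart, whereas those of Ung overlapped through the 0 of replicate 3, in which 1 count is 39.2 CPM, and without dark zone replicate 1 the adjusted p of Ung was 0.057. Polh, the polymerase eta that writes A:T mutations, averaged 27.9 ± 21.8 CPM in dark zone and 13.4 ± 6.5 CPM in naive cells (log2 fold change 1.38 ± 0.50, adjusted p 0.038), and its call was lost with DESeq2's size factors (1.22, adjusted p 0.065) and without dark zone replicate 1 (1.04, adjusted p 0.19).

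Other lesion-bypass genes rose as well. Rev3l, the catalytic subunit of polymerase zeta, had 284, 228, 235 and 233 CPM in dark zone cells, against 69.8, 76.6, 74.3 and 68.3 CPM in naive cells (log2 fold change 1.77 ± 0.17, adjusted p 7.9e-07). Rev1, a scaffold of the bypass polymerases, averaged 120.0 ± 82.2 CPM in dark zone and 39.7 ± 9.41 CPM in naive cells (log2 fold change 1.93 ± 0.29, adjusted p 7.7e-05). Homologous recombination genes were among the called members: Brca1 and Brca2 rose by 3.01 ± 0.46 and 1.97 ± 0.30. Of the mismatch repair genes, Msh3 (1.93 ± 0.24) and Msh6 (1.33 ± 0.30) rose. Members of the non-homologous end-joining pathway split: Lig4, its ligase, rose by 2.61 ± 0.42, while the Ku subunits Xrcc5 (-0.40, adjusted p 0.25) and Xrcc6 (-0.32, adjusted p 0.27) did not pass. Polq, which rose by 1.75 ± 0.60, lost its call without replicate 3 (1.63, adjusted p 0.055) and without any 1 of 5 other libraries.

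Receptors that place B cells within lymphoid tissue changed in both directions. Of 26 tested genes for such receptors and their signalling partners, 5 rose and 12 fell (6 and 12 without replicate 3), with a median of -0.74. S1pr2, the sphingosine 1-phosphate receptor that confines cells to the germinal centre, had 426, 370.0, 589 and 318 CPM in dark zone cells, against 5.69, 0.34, 4.6 and 0 CPM in naive cells (log2 fold change 7.25 ± 0.45, adjusted p 9.3e-09). S1pr1, the receptor for the same lipid that draws cells out into the circulation, had 63.5, 35.4, 0 and 56.7 CPM in dark zone cells, against 498, 523, 495 and 459.6 CPM in naive cells (log2 fold change -3.27 ± 0.22, adjusted p 1.7e-08). The 2 receptors were thus separated in every library, in opposite directions. Gna13, the G protein subunit that couples S1pr2, rose by 1.08 ± 0.15.

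Ccr7, the receptor that guides cells to the T zone, had 19.4, 19.3, 39.2 and 50.3 CPM in dark zone cells, against 657, 484, 517 and 546 CPM in naive cells (log2 fold change -4.19 ± 0.28, adjusted p 1.9e-08). Gpr183 (EBI2), an oxysterol receptor that draws B cells to the outer follicle and that must fall for cells to join a germinal centre, had 78.2, 53.9, 0 and 76.6 CPM in dark zone cells, against 443, 325, 357 and 412 CPM in naive cells (log2 fold change -2.49 ± 0.22, adjusted p 2.6e-07). Naive libraries were the higher ones for both, with no overlap. Cxcr5, the receptor for the follicle chemokine CXCL13, fell at -1.08 ± 0.19, and Ccr6, a receptor of memory precursors and naive cells, at -3.11 ± 0.32. Regulators of G protein signalling also changed: Rgs13, which damps chemokine receptor signals in germinal centre B cells, had 454, 525, 589 and 509.7 CPM in dark zone cells, against 38.8, 6.13, 13 and 25.8 CPM in naive cells (log2 fold change 4.64 ± 0.36, adjusted p 8.3e-08), Rgs10 rose by 2.27 ± 0.29, and Rgs18 fell, at -2.19 ± 0.50.

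Genes of G2 and mitosis were higher with 1 exception. Of 68 tested members 67 were higher in dark zone cells, all of them by more than 2-fold, and 0 lower, with a median of 4.54. The list summed to 18530 to 20870 CPM in dark zone libraries, against 1616 to 2609 CPM in naive libraries. Mki67, which coats mitotic chromosomes and is the standard marker of cycling cells, had 1428, 1439, 1609 and 1327 CPM in dark zone cells, against 8.8, 10.6, 12.3 and 52.4 CPM in naive cells (log2 fold change 6.09 ± 0.44, adjusted p 3.8e-08). One naive library stood above the other naive ones but far below every dark zone library. Cenpe, a kinetochore motor, had 899, 944, 902 and 922 CPM in dark zone cells, against 9.83, 9.19, 13.8 and 26.2 CPM in naive cells (log2 fold change 5.96 ± 0.27, adjusted p 3.2e-10). Plk1, the kinase that drives mitotic entry, averaged 141 ± 68.2 CPM in dark zone and 1.47 ± 2.45 CPM in naive cells (log2 fold change 6.57 ± 0.58, adjusted p 2.9e-07), and Ccnb1, cyclin B1, averaged 134 ± 69.4 CPM in dark zone and 3.73 ± 3.31 CPM in naive cells (log2 fold change 5.31 ± 0.50, adjusted p 6.1e-07). Kif14, a kinesin of cytokinesis, had no naive count and was at least 175-fold higher in the dark zone. The 1 member that did not pass was Pttg1, the securin that guards sister chromatids, at 93.7 ± 63.8 CPM in dark zone and 142 ± 35.3 CPM in naive cells (log2 fold change -0.24 ± 0.25, adjusted p 0.48).

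DNA replication genes followed with smaller folds. Of 54 tested, 47 were higher (46 without replicate 3) and 0 lower, with a median of 2.04. Pola1, the catalytic subunit of the polymerase that primes synthesis, had 441, 494, 432 and 427 CPM in dark zone cells, against 23.8, 27.2, 40.2 and 23.6 CPM in naive cells (log2 fold change 3.97 ± 0.20, adjusted p 1.0e-09). Lig1, which seals Okazaki fragments, averaged 529.6 ± 93 CPM in dark zone and 38.2 ± 20.4 CPM in naive cells (log2 fold change 3.68 ± 0.30, adjusted p 1.4e-07). The licensing factors Cdc6 and Mcm10 rose by 4.08 ± 0.55 and 4.99 ± 0.59. Within the replicative helicase, all 6 MCM subunits were higher, from Mcm4 at 1.04 ± 0.17 to Mcm5 at 2.45 ± 0.25. Members that did not pass included the licensing factor Cdt1 (0.27, adjusted p 0.26) and the polymerase delta subunit Pold2 (-0.28, adjusted p 0.34).

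Because these 2 lists moved almost as blocks, the promoters of their genes were searched for the short sequence elements known from cell cycle promoters. The windows came from RefSeq on GRCm38.p6, from 250 bases before to 50 after each gene's start, and 57 of the 68 mitosis genes and 44 of the 54 replication genes had one. The CHR element, known for the DREAM and B-MYB complexes of late cell cycle promoters, was read as TTTGAA or, for the other strand, TTCAAA. A gene was counted where any of its windows held the element. CHR was found in this way for 42 of the 57 mitosis genes (73.68%), for 14.7% of the 8103 tested genes with a window and for 20.23% of all 27025 genes with a window. The E2F site was read as TTTCCCGC or TTTGGCGC or their complements GCGGGAAA and GCGCCAAA. It was found for 15 of the 44 replication genes (34.09%), for 3.776% of tested genes and for 1.798% of all genes with a window. CCAAT boxes, read as CCAAT or ATTGG, stood in the windows of 73.68% of mitosis, 63.64% of replication and 43.54% of tested genes. A match to these letters is a description of the window and shows no binding.

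The next sequences give, for the members with the smallest p that hold the element within 100 bases of the start, those 100 bases on the gene's strand, 5′ to 3′, with the element in capitals. Promoters on a single chromosome were left out of this choice. The sequences are shown because they are the letters counted above. For CHR in mitosis genes they are Kif22 (chr7:127042421-127042520, minus strand), Mki67 (chr7:135716380-135716479, minus strand) and Cks1b (chr3:89418292-89418391, minus strand). For E2F in replication genes they are Mcm6 (chr1:128359706-128359805, minus strand) and Gins3 (chr8:95633459-95633558, plus strand). Kif22, Mki67 and Cks1b rose by 4.09 ± 0.23, 6.09 ± 0.44 and 3.06 ± 0.22, and Mcm6 and Gins3 by 1.25 ± 0.18 and 1.48 ± 0.33.
Kif22: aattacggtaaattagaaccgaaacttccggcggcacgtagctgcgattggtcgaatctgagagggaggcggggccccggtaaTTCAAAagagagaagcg
Mki67: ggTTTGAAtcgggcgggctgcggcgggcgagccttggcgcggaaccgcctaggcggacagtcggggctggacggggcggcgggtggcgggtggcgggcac
Cks1b: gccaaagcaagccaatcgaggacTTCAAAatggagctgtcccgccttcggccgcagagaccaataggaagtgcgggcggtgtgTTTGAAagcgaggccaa
Mcm6: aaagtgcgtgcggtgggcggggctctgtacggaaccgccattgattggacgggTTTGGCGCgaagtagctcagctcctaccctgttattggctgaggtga
Gins3: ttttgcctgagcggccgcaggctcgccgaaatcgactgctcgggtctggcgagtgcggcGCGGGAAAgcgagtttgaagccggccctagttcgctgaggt

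Genes that hold the cell cycle back, and the D cyclins, mostly went the opposite way where called. Of 29 tested, 15 fell and 5 rose, with a median of -0.71. The count of 5 that rose was not stable: it was 3 with DESeq2's size factors, 2 with DESeq2's Wald test, 3 without dark zone replicate 1 or naive replicate 4 and 2 without dark zone replicate 2. Klf3, a Krüppel-like repressor, had 29.4, 15.3, 78.5 and 12.1 CPM in dark zone cells, against 244, 276, 264 and 291 CPM in naive cells (log2 fold change -3.78 ± 0.28, adjusted p 5.9e-08). Klf2, a quiescence factor of lymphocytes that also activates S1pr1, had 36.4, 19.3, 118 and 36.2 CPM in dark zone cells, against 244, 337, 236 and 256 CPM in naive cells (log2 fold change -3.06 ± 0.27, adjusted p 2.9e-07). Txnip, which restrains glucose uptake, averaged 114 ± 24.3 CPM in dark zone and 518 ± 105 CPM in naive cells (log2 fold change -2.06 ± 0.19, adjusted p 4.2e-07). Groups did not overlap for any of them. The inhibitor p27, Cdkn1b, was low in both groups, at 4.85 ± 4.09 CPM in dark zone and 23.1 ± 8.03 CPM in naive cells (log2 fold change -1.86 ± 0.55, adjusted p 0.013; -1.58, adjusted p 0.058 without dark zone replicate 4). The retinoblastoma gene Rb1 fell at -1.81 ± 0.35.

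The D cyclins diverged. Ccnd2, the D cyclin of resting and newly stimulated B cells, had 34.8, 35.4, 39.2 and 80.1 CPM in dark zone cells, against 209, 230.5, 259.7 and 249 CPM in naive cells (log2 fold change -2.24 ± 0.26, adjusted p 5.7e-06). Ccnd3, the D cyclin on which dark zone proliferation depends, had 242, 279.9, 118 and 267 CPM in dark zone cells, against 156, 206, 205 and 153 CPM in naive cells (log2 fold change 0.50 ± 0.18, adjusted p 0.038). Dark zone libraries were thus the lower ones for Ccnd2 with no overlap, and for Ccnd3 the higher ones except for replicate 3. The small change of Ccnd3 was not called with DESeq2's size factors (0.34, adjusted p 0.14) or without any 1 of 5 libraries. Their kinase partner Cdk6 rose by 1.43 ± 0.24, while Cdk4 averaged 315 ± 64.3 CPM in dark zone and 263 ± 28.9 CPM in naive cells and did not pass (adjusted p 0.093). Rbl1, the p107 pocket protein that is itself an E2F target, rose by 1.77 ± 0.20.

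Genes of the naive state were lower almost as a group, with 21 of 28 lower and 2 higher (21 and 3 without replicate 3) and a median of -1.44. Fcer2a (CD23), the low-affinity IgE receptor of follicular B cells, had 147, 83.7, 0 and 119 CPM in dark zone cells, against 832, 792, 791 and 805 CPM in naive cells (log2 fold change -2.83 ± 0.22, adjusted p 9.8e-08). Cd38, a surface enzyme that mouse germinal centre cells lose, had 59.6, 65.2, 39.2 and 192 CPM in dark zone cells, against 724, 562, 662 and 741 CPM in naive cells (log2 fold change -2.69 ± 0.31, adjusted p 5.7e-06). Ighd, the delta constant region, had 314, 274, 353 and 262 CPM in dark zone cells, against 1323, 991, 1055 and 1178 CPM in naive cells (log2 fold change -1.98 ± 0.17, adjusted p 2.0e-07). In each the highest dark zone library was below the lowest naive one. Bcl2, the survival factor of resting B cells, had 12.4, 12.1, 0 and 16.3 CPM in dark zone cells, against 160.4, 211, 188 and 164 CPM in naive cells (log2 fold change -3.74 ± 0.26, adjusted p 2.3e-08). Zbtb20, a zinc finger repressor, ran against its list, with 1168, 1122, 863 and 739 CPM in dark zone cells, against 146, 186, 203 and 212 CPM in naive cells (adjusted p 8.1e-08). Vpreb3, a surrogate light chain gene, was the other that rose (0.62 ± 0.18; 0.48, adjusted p 0.072 with DESeq2).

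Death and survival genes moved in both directions and did not stand out widely, as a list, from all tested genes (19.6% higher and 21.3% lower). Of 22 tested genes of the BCL2 family and death receptors, 6 rose and 2 fell (5 and 3 without replicate 3, 5 and 5 with DESeq2's size factors), and 5 fell without naive replicate 2. Fas, the death receptor used to identify germinal centre cells, had 358, 316, 471 and 287 CPM in dark zone cells, against 25.4, 15, 50.9 and 15.9 CPM in naive cells (log2 fold change 3.62 ± 0.32, adjusted p 3.3e-07). Birc5 (survivin), which also serves the mitotic list, averaged 478 ± 101 CPM in dark zone and 13.4 ± 21.4 CPM in naive cells (log2 fold change 5.06 ± 0.69, adjusted p 2.5e-05). The pro-apoptotic Bak1 (3.92 ± 0.79) and Bad (1.37 ± 0.22) rose, and Casp8, the initiator that Fas engages, fell, at -0.72 ± 0.17. Mcl1, the survival protein on which germinal centre cells depend, did not pass (-0.31, adjusted p 0.11), but was called lower without replicate 3 (-0.31, adjusted p 0.038).

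B cell receptor signalling genes moved little as a list, but single components fell. Of 38 tested, 14 fell (17 without replicate 3) and 1 rose, at a median of -0.30; 3 rose without naive replicate 2 and 5 with limma-voom. The 1 that rose was Cd79b, a signalling chain of the receptor, by 0.58 ± 0.18. At 1.41 counts per exonic base it lies near the bound on counts, and the call was lost when counts were corrected for that bound (0.28, adjusted p 0.19) and with DESeq2's size factors (0.43, adjusted p 0.058). Btk, the kinase that carries the signal to phospholipase C, had 125, 95.7, 39.2 and 108 CPM in dark zone cells, against 228, 303, 277 and 250.4 CPM in naive cells (log2 fold change -1.30 ± 0.19, adjusted p 4.6e-05). Prkcb, the protein kinase C isoform that links the receptor to NF-kB, had 198, 237, 275 and 194 CPM in dark zone cells, against 489, 561, 524 and 483 CPM in naive cells (log2 fold change -1.27 ± 0.16, adjusted p 8.4e-06). The Src family kinases Lyn (-0.72 ± 0.16) and Blk (-0.73 ± 0.15) fell, and Syk, the kinase that starts the cascade, averaged 532 ± 131 CPM in dark zone and 482 ± 69.6 CPM in naive cells and did not pass (adjusted p 0.27). Pik3cd, the PI3K subunit that is activated in the other genotype of the study, averaged 199 ± 32.8 CPM in dark zone and 226 ± 105 CPM in naive cells (log2 fold change -0.11 ± 0.26, adjusted p 0.77).

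Genes of antigen presentation and costimulation had no common direction, with 5 of 26 higher and 7 lower (5 and 8 without replicate 3); DESeq2's Wald test called 2 higher, and 4 were lower without dark zone replicate 4. Cd74, the invariant chain that escorts MHC class II, had 1577, 1524, 7141 and 1402 CPM in dark zone cells, against 1267, 862, 964 and 1056 CPM in naive cells (log2 fold change 1.33 ± 0.41, adjusted p 0.015). Replicate 3 alone stood far above the rest, and without it the log2 fold change was 0.51. H2-Ab1, a class II beta chain, changed likewise, at 1.09 ± 0.32 with and 0.54 without replicate 3. Both lie near the bound on counts, and neither was called by DESeq2's Wald test (adjusted p 0.069 for Cd74 and 0.063 for H2-Ab1). Icosl, the ligand by which B cells engage ICOS on helper T cells, had 18.6, 19.3, 78.5 and 55.3 CPM in dark zone cells, against 106, 373, 174 and 166 CPM in naive cells (log2 fold change -2.67 ± 0.43, adjusted p 1.4e-04). Tapbp, which loads MHC class I, fell, at -1.64 ± 0.19, and Cd40, the receptor for T cell help, fell, at -1.12 ± 0.19.

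NF-kB and CD40 target genes were mostly lower, with 19 of 28 against 1 higher, with a median of -1.08; the counts were the same without replicate 3. Nfkb2, the p100 precursor of the non-canonical branch, had 48.8, 32.2, 0 and 34.7 CPM in dark zone cells, against 118, 250.2, 161 and 136 CPM in naive cells (log2 fold change -2.14 ± 0.29, adjusted p 3.0e-05). Relb, its partner, had 44.9, 42.6, 0 and 39.7 CPM in dark zone cells, against 94.7, 194, 125 and 163 CPM in naive cells (log2 fold change -1.80 ± 0.28, adjusted p 9.2e-05). Cd83, a light zone surface marker, had 339, 219.6, 275 and 441 CPM in dark zone cells, against 712, 525, 606 and 591 CPM in naive cells (log2 fold change -0.88 ± 0.20, adjusted p 0.0023). Dark zone libraries were lower for all 3 with no overlap. Rel, the c-REL subunit, averaged 281 ± 52.8 CPM in dark zone and 288 ± 39.1 CPM in naive cells (log2 fold change -0.13 ± 0.17, adjusted p 0.55) and did not pass. Immediate early genes were also lower where called, 9 of 19 against 1 higher (10 and 1 without replicate 3), among them Ier2 (-2.83 ± 0.24), Nr4a1, an orphan receptor induced by antigen (-2.45 ± 0.60), and Jun (-1.98 ± 0.48). Hsp90aa1, an inducible chaperone, was the 1 that rose (1.28 ± 0.19). These genes also respond to tissue dissociation and sorting, and the part of handling in the result was not tested.

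Interferon response genes had the lowest median of the B cell lists, at -1.93. Of 27 tested, 23 fell and 2 rose, with the same counts without replicate 3. Ddx58 (RIG-I), a sensor of viral RNA, had 23.2, 16.9, 39.2 and 41.1 CPM in dark zone cells, against 152, 215, 193 and 163 CPM in naive cells (log2 fold change -2.71 ± 0.28, adjusted p 1.5e-06). Irf9, the DNA-binding subunit of the factor that type I interferon activates, had 90.6, 112, 39.2 and 109.9 CPM in dark zone cells, against 341, 285, 370.0 and 345 CPM in naive cells (log2 fold change -1.71 ± 0.18, adjusted p 1.8e-06). Oasl1, a 2′-5′ oligoadenylate synthetase-like gene, had 2.32, 0.804, 0 and 4.96 CPM in dark zone cells, against 37.8, 76.6, 77.8 and 43.8 CPM in naive cells (log2 fold change -4.40 ± 0.54, adjusted p 9.4e-06). Rsad2 (viperin) had no dark zone count and was at least 42.2-fold lower, with 0, 0, 0 and 0 CPM in dark zone cells, against 6.73, 18.4, 34.9 and 66.6 CPM in naive cells. All naive libraries exceeded all dark zone libraries in these 4 genes. The 2 that rose were Ifi27l2a (0.78 ± 0.20) and Isg20, an exonuclease (0.62 ± 0.23; 0.46, adjusted p 0.11 with DESeq2's size factors).

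Among 16 tested genes of Toll-like receptors and their adaptors, 8 were lower and 0 higher. Tlr7, the endosomal receptor for single-stranded RNA, had 9.29, 0.804, 0 and 12.1 CPM in dark zone cells, against 51.2, 70.1, 72 and 87.2 CPM in naive cells (log2 fold change -3.23 ± 0.50, adjusted p 9.5e-05). Unc93b1, the chaperone that delivers the endosomal receptors, averaged 254 ± 40.0 CPM in dark zone and 568 ± 50.8 CPM in naive cells (log2 fold change -1.08 ± 0.15, adjusted p 3.5e-05). Tlr3 had 2 counts in the dark zone group, and its ratio of naive to dark zone was 34.4 (95% exact interval 9.38 to 286). The GIMAP GTPases, a family tied to lymphocyte survival, fell in 7 of 8, from Gimap3 at -2.07 ± 0.21 to Gimap1 at -0.78 ± 0.17.

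Metabolic genes divided by pathway. Nuclear-encoded subunits of oxidative phosphorylation were higher in 42 of 57 cases and lower in 1, with a median of 0.82 (0.75 without replicate 3). Most of the changes were under 2-fold, 20 being larger. Atp5k, a subunit of ATP synthase, had 139, 132, 471 and 118 CPM in dark zone cells, against 61, 27.6, 46 and 41.7 CPM in naive cells (log2 fold change 1.76 ± 0.33, adjusted p 4.6e-04). Ndufb7, a subunit of complex I, had 379, 317, 824 and 309 CPM in dark zone cells, against 178, 92.6, 129 and 128 CPM in naive cells (log2 fold change 1.49 ± 0.24, adjusted p 1.4e-04). Sdha, the flavoprotein of complex II, was the 1 that fell (-0.67 ± 0.15), while its partner Sdhb rose (1.08 ± 0.16).

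All 9 tested mitochondrially encoded genes were higher as well, but here replicate 3 set the size: the median was 1.93 with it and 0.96 without it. All 9 were also called without replicate 3, but DESeq2's Wald test over all libraries called 4 of them. mt-Cytb, the cytochrome of complex III, had 1437, 1450.4, 10280.2 and 1351 CPM in dark zone cells, against 904, 581, 687 and 740.4 CPM in naive cells (2.15 ± 0.52 with and 0.93 without replicate 3). Both the 3 deep dark zone libraries and replicate 3 lay above every naive library. The mitochondrial share of counts, which also serves as a sign of RNA quality, was 0.818 to 0.905% in the 3 deep dark zone libraries and 0.357 to 0.524% in naive libraries, and the part of RNA quality in this difference was not tested.

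Glycolysis genes showed no common direction, with 4 of 19 higher and 5 lower (3 and 5 without replicate 3); DESeq2's Wald test called 2 higher, and 3 were lower without dark zone replicate 1. Tpi1, triosephosphate isomerase, had 307, 326, 196 and 379 CPM in dark zone cells, against 124, 128, 137 and 143 CPM in naive cells (log2 fold change 1.30 ± 0.16, adjusted p 1.3e-05). The glucose transporters Slc2a3 and Slc2a1 fell, at -2.86 ± 0.51 and -1.57 ± 0.30, and the hexokinases parted, with Hk2 at 1.97 ± 0.55 and Hk1 at -1.92 ± 0.52. Cholesterol synthesis genes were higher in 11 of 24 and lower in 1, with a median of 0.96. Sqle, squalene epoxidase, averaged 107 ± 20.8 CPM in dark zone and 42.1 ± 6.7 CPM in naive cells (log2 fold change 1.44 ± 0.24, adjusted p 1.6e-04). In one-carbon and nucleotide synthesis 11 of 33 rose and 4 fell (10 and 5 without replicate 3); 2 fell without dark zone replicate 1 or 4 or naive replicate 3. Among the leading ones were Rrm2 (3.71 ± 0.38) and Tyms (3.52 ± 0.31), which serve deoxynucleotide supply, and Mthfd2, a mitochondrial folate enzyme, rose by 1.68 ± 0.22.

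The list of MYC targets and ribosome biogenesis genes also holds Myc and the antagonists Mxd1 and Mxi1, which are not counted apart. It was near the background, with 7 of 44 higher and 9 lower and a median of -0.18 (-0.33 with DESeq2's size factors). Members that rose included Ran, the GTPase of nuclear transport (1.02 ± 0.17), its partner Ranbp1 (1.23 ± 0.18) and Npm1, nucleophosmin (0.86 ± 0.16). Among those that fell were the MYC antagonists Mxd1 (-2.60 ± 0.57) and Mxi1 (-3.28 ± 0.83), with Myc itself.

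Chromatin regulators were higher in 21 of 40 and lower in 6, with a median of 0.70. Dnmt1, the maintenance DNA methyltransferase, had 492, 475, 510.1 and 418 CPM in dark zone cells, against 53.3, 77.6, 55.2 and 40.8 CPM in naive cells (log2 fold change 3.03 ± 0.20, adjusted p 1.3e-08). Ezh2, the histone H3 lysine methyltransferase of Polycomb complexes in dividing cells, had 327, 415, 235 and 433 CPM in dark zone cells, against 49.1, 39.8, 71.2 and 77.7 CPM in naive cells (log2 fold change 2.67 ± 0.23, adjusted p 2.0e-07). Ezh1, its paralogue in resting cells, had 50.3, 28.2, 0 and 31.2 CPM in dark zone cells, against 131, 112, 111 and 86.3 CPM in naive cells (log2 fold change -1.63 ± 0.29, adjusted p 3.1e-04). The paralogues changed in opposite directions, with no overlap in either. Hells, a remodeller that works with Dnmt1, rose by 3.44 ± 0.27, and Smarca4, the SWI/SNF ATPase, by 2.13 ± 0.15. Lower members included the DNA demethylase Tet2 (-2.02 ± 0.43), the histone demethylase Kdm5b (-3.47 ± 0.61) and Satb1, a chromatin organiser (-2.22 ± 0.23).

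The largest differences over all genes added members outside these lists. Among the 12 largest increases, Pif1, a DNA helicase, had no naive count and 68.9, 82, 157 and 75.1 CPM in dark zone cells, against 0, 0, 0 and 0 CPM in naive cells, so it was at least 248-fold higher. Tox2, an HMG-box factor, had 74.3, 74, 39.2 and 42.5 CPM in dark zone cells, against 0, 0, 0 and 0 CPM in naive cells and was at least 205-fold higher. Asns, asparagine synthetase, had 66.6, 47.5, 0 and 60.3 CPM in dark zone cells, against 0, 0, 0 and 0 CPM in naive cells and was at least 189-fold higher. The same pattern of no naive counts held for Arhgap8 (at least 233-fold higher), Emp2 (at least 182-fold higher), Gnaz (at least 167-fold higher) and the atypical E2F repressor E2f7 (at least 169-fold higher). Slc22a15, a transporter, had 3 naive counts and a ratio of dark zone to naive of 281 (95% exact interval 95.3 to 1368). Hbb-bh1, annotated as an embryonic beta-like globin, had 125, 98.1, 39.2 and 103 CPM in dark zone cells, against 0, 0, 0 and 0 CPM in naive cells and was at least 353-fold higher. It belongs to a multigene family, and no source at hand says how the authors treated reads shared between copies. Of 4 tested erythroid and platelet markers 1 was higher, the adult beta globin Hbb-bt (1.82 ± 0.50; 1.56, adjusted p 0.056 without dark zone replicate 2), and 1 lower, the carbonic anhydrase Car2 (-1.92 ± 0.34), while the erythroid enzyme Alas2 was too low to be tested.

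Of the 12 largest decreases, 7 were members of the marker lists of other cell types. Gzma (granzyme A), Klrk1 (NKG2D) and Ncr1 (NKp46), all of natural killer (NK) cells, and Siglech, of plasmacytoid dendritic cells, had no dark zone count. They were at least 164-fold lower, at least 84.2-fold lower, at least 79.2-fold lower and at least 125-fold lower in the dark zone group. Gzma had 0, 0, 0 and 0 CPM in dark zone cells, against 143, 84.1, 113 and 170.1 CPM in naive cells. Ccl5, a chemokine of NK and memory T cells, had a ratio of naive to dark zone of 105 (95% exact interval 35.7 to 509), and Nkg7, a cytotoxic granule protein, had 0, 8.04, 0 and 0 CPM in dark zone cells, against 147, 57.5, 96.9 and 103 CPM in naive cells (log2 fold change -5.27 ± 0.68, adjusted p 1.6e-05). Ly6c2, a surface antigen of monocytes that T and NK cells also carry, fell at -4.96 ± 0.65. In such bulk libraries fewer cells of a type and less RNA per cell cannot be told apart. Other decreases were Rasgef1b, a Ras exchange factor, with 3.1, 2.41, 0 and 9.22 CPM in dark zone cells, against 191, 237, 211 and 278 CPM in naive cells (log2 fold change -5.50 ± 0.34, adjusted p 9.3e-09), Cobll1 (-5.29 ± 0.58) and Ifi208 (-4.93 ± 0.49). Tcn2, the transcobalamin that carries vitamin B12, and Wls, the Wnt carrier, had ratios of naive to dark zone of 136 (95% exact interval 37.5 to 1125) and 109.6 (95% exact interval 37.4 to 532).

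Across the whole NK and innate lymphoid list, 10 of 11 tested genes were lower and 0 higher, with a median of -6.57, or of -5.68 when genes without dark zone counts are set at their bound. The list summed to 0 to 19.1 CPM in dark zone libraries, against 493 to 685 CPM in naive libraries. T cell markers summed to 483 to 620.2 CPM in dark zone and 558 to 759 CPM in naive libraries, with 3 of 8 lower and Cd4 and Cd8a too low to be tested. Dendritic cell markers were lower in 5 of 7 (2 of 4 without naive replicate 2 or 3, 2 of 7 with limma-voom), while Flt3, a cytokine receptor of progenitors, was higher (4.14 ± 0.40). Monocyte, macrophage and neutrophil markers were lower in 1 of 7 and stromal ones in 2 of 3. Marginal zone B cell markers were lower in 6 of 12, with a median of -0.86, and higher in 1, Mzb1 (1.01 ± 0.19), a chaperone also on the plasma cell list. Cd1d1, which presents lipids, had 10.8, 6.44, 0 and 7.8 CPM in dark zone cells, against 172, 133, 198 and 177 CPM in naive cells (log2 fold change -4.35 ± 0.29, adjusted p 1.8e-08). The part of NK and other non-B cells in the decreases of other lists, the interferon genes among them, was not tested.

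Plasma cell markers had no common direction, with 5 of 13 higher and 3 lower. Jchain, which links immunoglobulin polymers, had 869, 963, 2747 and 893 CPM in dark zone cells, against 102, 8.85, 35.6 and 30.9 CPM in naive cells (log2 fold change 4.75 ± 0.54, adjusted p 4.0e-06). Slpi, a protease inhibitor, had 135, 154, 118 and 145 CPM in dark zone cells, against 16.6, 3.06, 2.3 and 7.3 CPM in naive cells (log2 fold change 4.35 ± 0.45, adjusted p 1.5e-06). Sdc1 (CD138), the surface proteoglycan that defines plasma cells, had no dark zone count and was at least 28.1-fold lower. Prdm1, which encodes BLIMP1, the repressor that installs the plasma cell state, was too low to be tested. Igha, the IgA constant region, had 55.7, 61.9, 1413 and 56.7 CPM in dark zone cells, against 107, 20.1, 30.6 and 39.5 CPM in naive cells, so that replicate 3 alone stood apart, and the gene did not pass (adjusted p 0.22).

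**Figure D4:**
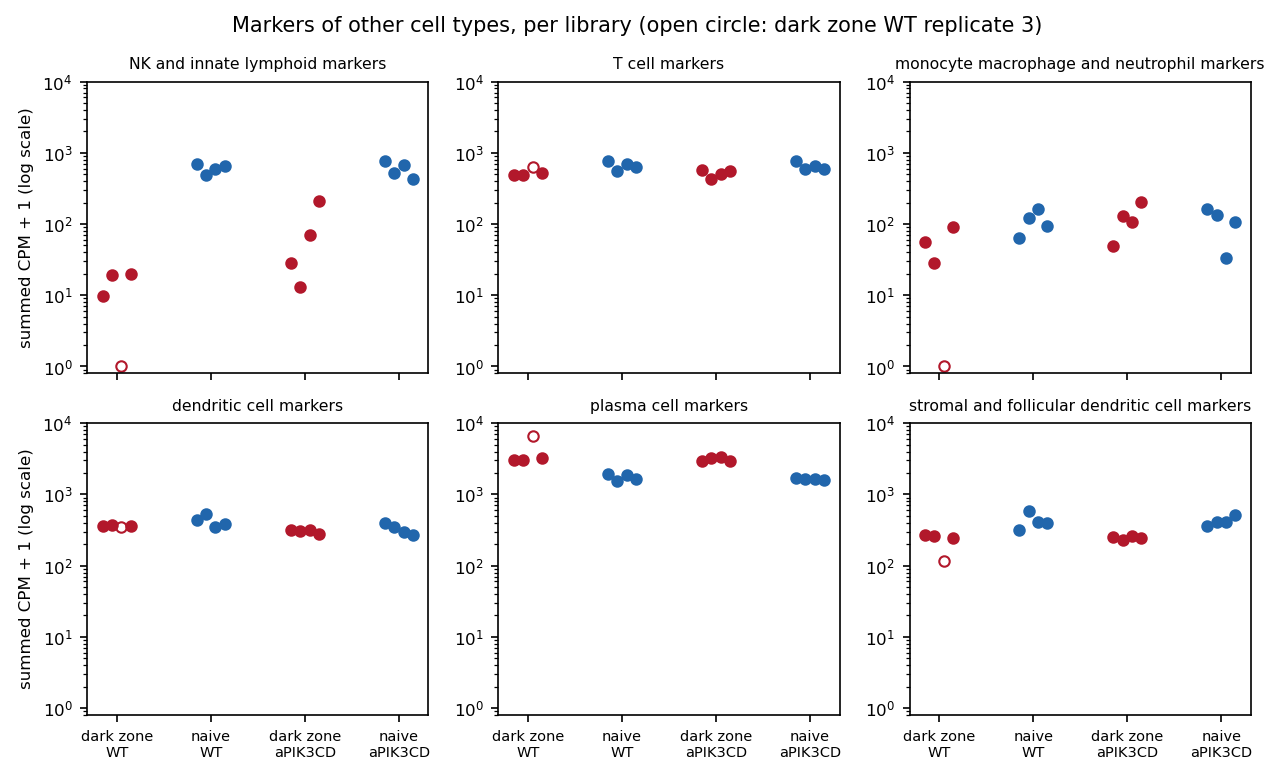
Summed CPM + 1 (log scale) of marker lists of other cell types in every dark zone (red) and naive (blue) library of both genotypes, dark zone left of naive in each; the open circle is dark zone WT replicate 3. NK markers lie at 0 to 19.1 CPM in dark zone and 493 to 685 CPM in naive WT libraries. Sums of T cell and of dendritic cell markers lie close together, but single members differed in WT. Of 7 tested dendritic cell markers 5 were lower and 1 higher, and of 8 tested T cell markers 3 were lower and 0 higher.

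The same comparison in aPIK3CD mice gave independent libraries, 4 of each population, since none is shared with WT. Of 10470 genes tested there 2320 (22.2%) were higher and 2243 (21.4%) lower in dark zone cells, so 43.6% were called. Of the 4431 WT calls 4236 were tested, 4200 had the same direction, 3427 were called in that direction and 0 in the opposite one. The 3427 are 77.3% of the WT calls and 75.1% of the aPIK3CD calls. Among the list genes tested in both, 443 of 444 WT calls had the same sign, and the exception was Nfkbiz, an atypical NF-kB inhibitor (0.13 in aPIK3CD and -1.07 in WT, where the call was lost without any 1 of 4 libraries). The log2 fold change of Mef2b was 5.81 in aPIK3CD and 5.25 in WT. That of Pola1 was 4.06 and 3.97, that of S1pr1 -3.70 and -3.27, and that of Bcl2 -4.01 and -3.74. Of the 12 largest decreases in WT, those tested in aPIK3CD had smaller folds there, except Ifi208 (-4.97 in aPIK3CD and -4.93 in WT). These genes were chosen for their large WT folds, so smaller folds in other libraries can come from that choice alone. The interaction given below called none of its genes with edgeR. Gzma and Klrk1, without dark zone counts in WT, were at -2.99 and -2.77 in aPIK3CD. Wls was at -3.10 there and -6.63 in WT, and Tcn2 at -3.34 and -6.89. The WT folds of Wls and Tcn2 rest on 3 and 2 dark zone counts in all. Of the 12 largest increases, Asns (4.82), Arhgap8 (5.64) and Kif14 (5.99) had the smallest aPIK3CD folds, the others 7.23 or more. Fitted folds against a group with few or no counts depend on the prior count, so the order of these sizes is not a result. Irf4 fell in both, at -1.74 in aPIK3CD and -3.63 in WT, and the difference did not pass (adjusted p 0.6). NK markers summed to 12.1 to 209.7 CPM in aPIK3CD dark zone libraries, and to 433 to 754 CPM in aPIK3CD naive libraries.

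**Figure D5:**
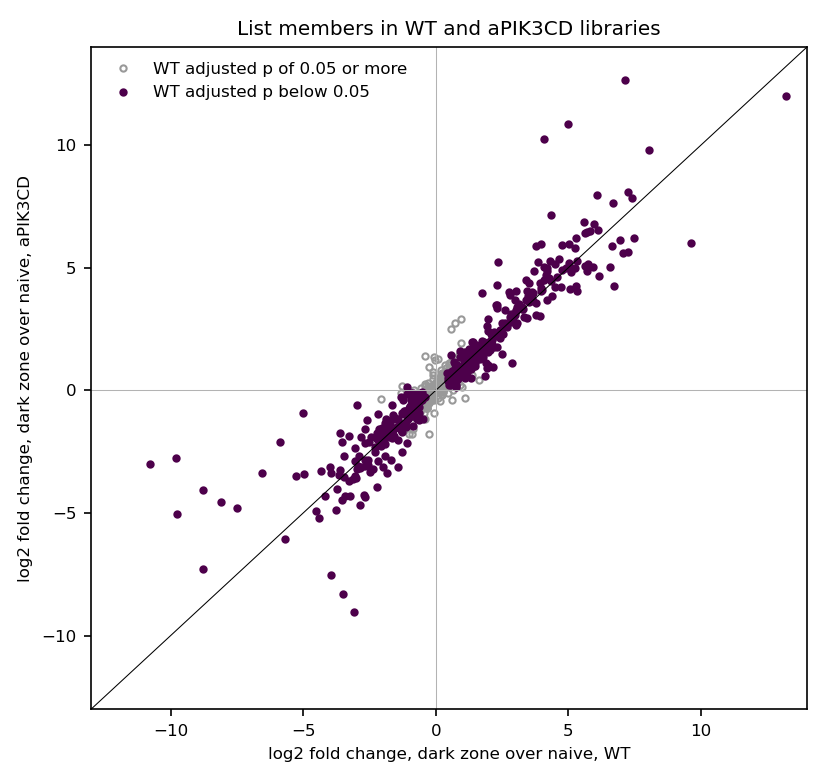
Log2 fold change of dark zone over naive cells in aPIK3CD (vertical) against WT (horizontal) libraries for 693 list genes, filled where the WT adjusted p is below 0.05; the line marks equal values. Of 444 filled points 443 have the same sign in both genotypes.

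The difference between the genotypes' effects was tested itself, as an interaction over the 16 libraries. None of 11748 genes passed with edgeR (0%), 595 had an unadjusted p below 0.05, DESeq2 called 8 and limma-voom 0. The 6 genes with the smallest p were Ighv8-8, Cdc6, Satb1, Gm13684, Angptl4 and Fanci, and 5 of them had 2 or fewer counts over a whole group, so that their fitted differences depend on the prior count and are not given. Satb1 had 16.6, 26.8, 16.3 and 12.5 CPM in dark zone cells, against 292, 271, 255 and 276 CPM in naive cells of aPIK3CD mice. In WT mice it had 50.02, 56.5, 76.3 and 40.1 CPM in dark zone cells, against 166, 219, 245 and 299 CPM in naive cells. The difference of the dark zone effects, aPIK3CD minus WT, was -1.71 ± 0.31 (SE), adjusted p 0.072, and Satb1 was thus further below naive cells in aPIK3CD, without passing the threshold. Cdc6 had 229.7, 121, 201 and 226 CPM in dark zone cells, against 0, 0, 0.409 and 0 CPM in naive cells of aPIK3CD mice. In WT mice it had 115, 120.2, 76.3 and 127 CPM in dark zone cells, against 0, 6.5, 16.2 and 4.28 CPM in naive cells (adjusted p of the difference 0.072). Ighv8-8, a heavy chain variable segment, had 24.6, 10.7, 15.6 and 23.6 CPM in dark zone cells, against 21.5, 29.7, 37.2 and 33.9 CPM in naive cells of aPIK3CD mice. In WT mice it had 0, 0, 0 and 1.41 CPM in dark zone cells, against 34.4, 22.2, 38.2 and 27.4 CPM in naive cells (adjusted p of the difference 0.055). The dark zone libraries of WT mice held 2 of its counts in all. The aPIK3CD replicate 1 libraries carry the WT genotype in one label field and were grouped by their titles.

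The second germinal centre population, the light zone, shares the dark zone libraries with the main comparison, so values are given side by side and no overlap is counted. Between dark zone and light zone WT cells 260 of 10060 genes (2.58%) differed, 124 (1.23%) higher and 136 (1.35%) lower in the dark zone. These counts rest on single libraries: they were 54 and 44 without dark zone replicate 1, 51 and 48 without dark zone replicate 2, 80 and 80 without light zone replicate 2, 88 and 60 without light zone replicate 3, and 186 and 230 without light zone replicate 4. Ccnd2 was the leading gene, with 34.3, 34.8, 38.5 and 78.7 CPM in dark zone cells, against 226, 267, 235 and 330.3 CPM in light zone cells (log2 fold change -2.41 ± 0.25, adjusted p 6.0e-05). Rgcc, a regulator of the cell cycle, had 324, 269, 269.5 and 261 CPM in dark zone cells, against 105, 78.7, 53.2 and 50.6 CPM in light zone cells (log2 fold change 1.97 ± 0.21, adjusted p 6.0e-05). Trim2, a ubiquitin ligase, had 65.5, 64.1, 116 and 46.7 CPM in dark zone cells, against 9.46, 6.84, 6.03 and 4.49 CPM in light zone cells (log2 fold change 3.15 ± 0.37, adjusted p 1.8e-04). Their values did not overlap between the zones, as held for 9.17% of the genes tested. Pafah1b3 (log2 fold change 1.42 ± 0.16, adjusted p 1.2e-04), Smarca4 (log2 fold change 1.08 ± 0.14, adjusted p 3.6e-04) and 4833407H14Rik (log2 fold change 1.46 ± 0.19, adjusted p 3.6e-04) completed the 6 with the smallest p.

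Light zone markers were lower in the dark zone in 7 of 13 and dark zone markers higher in 4 of 13. Cxcr4, at 0.91, did not pass here either (adjusted p 0.13). Gcsam (1.27, adjusted p 0.0069) and Bach2 (0.90, adjusted p 0.0053) were higher in the dark zone than in the light zone. Irf4 (-2.95, adjusted p 3.6e-04) and Myc (-1.86, adjusted p 3.6e-04) were lower. Bcl6 (0.45, adjusted p 0.29) and S1pr2 (0.51, adjusted p 0.088) did not pass. Of the mitosis genes 8 of 68 were higher in the dark zone, with a median of 0.29, and of the replication genes 1 was, with a median of 0.09. NF-kB and CD40 targets were lower in 9 of 28, and members of the list of MYC targets and ribosome biogenesis in 12 of 44, with medians of -0.90 and -0.62. Of the interferon genes 0 of 17 tested passed in either direction with edgeR.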

How the data were processed

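RNA-seq of sorted splenic B cell populations was deposited by the authors as raw counts per gene for 32 libraries, 8 groups of 4, and 53465 genes. Reads were aligned with STAR 2.4.2a, and HTSeq and Picard were also used, per the submitters' processing notes; the build was not given in the sources used here. The labels' protocols name the SMART-Seq v4 kit, which does not mark strand, so antisense and overlapping genes cannot be told apart, and copies of multigene families (Hbb-bh1, Ifit genes, class II genes) are uncertain. Of the gene IDs 53360 were in GENCODE M21, which gave exonic lengths only; 3433 genes had no name and entered the tests.

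Counts were tested with edgeR 4.0.16 (R 4.3.3), by quasi-likelihood F tests, two-sided, with TMM scaling, filterByExpr (minimum count 10, minimum total 15) on libraries other than dark zone WT replicate 3, and Benjamini-Hochberg adjustment over all genes tested in a comparison. SE is the log2 fold change over the square root of F. CPM of single tested genes are relative to TMM-scaled totals, and summed CPM of lists to the unscaled totals over all genes. Each comparison was fitted on its own groups, and the interaction on 16 libraries. Folds against a group without counts use a floor of 3 counts over the group, and ratios with 1 to 3 counts carry exact 95% intervals, which cover counting error only. DESeq2 1.42.0, limma 3.58.1, other filters and scalings, the replicate number as a block and each library left out were tried as alternatives. Counts corrected for their bound per exonic base and fits without aPIK3CD replicate 1 were added after seeing the data. The procedures were tested on simulated data.

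Named genes were, for higher and for lower genes, the 12 of largest fold with an adjusted p below 0.05, a mean of at least 50 CPM in the higher group and no overlap over the 7 deep libraries, predicted genes and receptor segments excepted, then up to 6 members of a list with the smallest p, members whose role is explained, and the 6 smallest p of the other comparisons. Igha, Hbb-bt and Nfkbiz were named after their values were seen. Some genes that this rule names are not reported here. The groups compared and the 32 lists were chosen with earlier results of these data known. No pair of libraries within the dark zone WT group or within the naive WT group agreed within counting noise. Other pairs were not checked. The light zone of aPIK3CD and the plasma cell libraries were not analysed here beyond 1 alternative fit over all groups.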

Additional observations from a re-analysis of the deposited data

Results flagged for a closer look

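In a group of 4 libraries a value was picked out where the gap between the highest or lowest library and its nearest neighbour took up more than 0.829 of the group's range. For genes the gap was taken on log2 CPM, with a prior count scaled to library depth. Of 344 groups of values looked at, 51 had a value picked out. Among equally deep libraries chance would pick out about 1 in 20. Dark zone replicate 3 gave most of the 51, and its values, those at 0 CPM above all, can be picked out through its low depth alone. Its total was 25797 counts, 6.12% of its counts came from mitochondrially encoded genes and 16.8% from its 50 highest genes. Replicate 3 stood below the other dark zone libraries at 0 CPM for Asns, Bcl2, Brca1, E2f7, Ezh1, Fcer2a and Flt3. The same held, at 0 CPM, for Gpr183, Hbb-bt, Hk1, Ier2, Nfkb2, Pttg1 and Rb1, and for Relb, Rev1, S1pr1 and Slc22a15. It was also the lowest, above 0, for Casp8 (78.5 CPM), Ccnd3 (118 CPM), Mef2b (432 CPM), Msh3 (39.2 CPM), Plk1 (39.2 CPM), Rgs10 (39.2 CPM) and Tyms (78.5 CPM). It was the highest for Atp5k (471 CPM), Cd74 (7141 CPM), H2-Ab1 (4630 CPM), Ifi27l2a (628 CPM), Igha (1413 CPM), Jchain (2747 CPM) and Kif14 (118 CPM). So it was for Mcm5 (863 CPM), Ms4a1 (2315 CPM), Mzb1 (942 CPM), Pou2af1 (863 CPM) and mt-Cytb (10280.2 CPM). Dark zone replicate 1 stood apart for Rev3l (284 CPM). Dark zone replicate 2 stood apart for Ccl5 (2.41 CPM), Nfkbiz (12.9 CPM) and Nkg7 (8.04 CPM). Dark zone replicate 4 stood apart for Ccnd2 (80.1 CPM), Gnaz (69.5 CPM), Mxi1 (8.51 CPM), Nuggc (445 CPM) and Tcn2 (1.42 CPM). Naive replicate 2 stood apart for Syk (586 CPM). Naive replicate 3 stood apart for Polq (28.7 CPM).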

How the results depend on the processing

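For dark zone against naive cells in WT, 1509 to 2684 genes were higher and 1888 to 2852 lower over the alternatives run, and 0 of the 4431 calls changed sign under any of them. Leaving out 1 library gave 1694 to 2188 higher and 1888 to 2358 lower. With the replicate number as a block 3956 genes were called, 3824 of them among the 4431. Deviations from the group mean had correlations of -0.0364, 0.0868, 0.00406 and -0.0209 between same-numbered dark zone and naive WT libraries. Between dark zone and light zone WT libraries they were 0.0761, -0.00593, -0.113 and -0.125. The dark zone mean includes replicate 3, whose counting noise enters all these deviations, so the WT values cannot decide whether libraries pair. In aPIK3CD same-numbered dark zone and naive pairs gave 0.107, 0.197, 0.0602 and 0.201 for replicates 1 to 4, and differently numbered pairs -0.146 to 0.0707. The column names of the counts number the libraries alike in every population, but the labels do not say that a number is a mouse. Whether same-numbered libraries pair was therefore not settled, and the main fits do not use the numbers. The block gave 2439 higher and 2297 lower in aPIK3CD and 92 higher and 98 lower against the light zone. In aPIK3CD the counts stayed within 1.5 times their reported values under every alternative run. The difference between genotypes, 0 genes, became 8 with DESeq2's Wald test, 69 with no filter on low counts, 4 when all groups were fitted together and 0 to 3 on leaving out 1 library (3 without naive WT replicate 1, 2 without dark zone aPIK3CD replicate 2, 1 without dark zone WT replicate 4). The dark zone and light zone counts, 124 higher and 136 lower, became 58 and 62 with DESeq2's Wald test, 211 higher with limma-voom, 238 and 321 with no filter, 74 higher in the single fit, and 51 to 186 and 44 to 230 on leaving out 1 library; the cause was not tested. Of 3194 values of 169 named genes under 19 alternatives, 3114 kept direction and call, 55 lost and 20 gained the call. The other 5 changed sign, all in genes that did not pass: Cxcr4 gave 0.13 with limma-voom and -0.36 to 0.068 on leaving out 1 library (0.017 without dark zone replicate 1, 0.068 without naive replicate 2), and Pik3cd gave 0.11 with limma-voom and -0.29 to 0.24 on leaving out 1 library (0.24 without naive replicate 2). Depth limits replicate 3 most, where a gene below 39.2 CPM is more often than not at 0 or 1 count.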
